A study of Mus musculus with 3 samples.

Results

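Blood endothelial nuclei of the mouse submandibular gland were taken from 3 single-nucleus RNA libraries by a rule on detected genes. A nucleus barcode was a member when it held at least 500 genes, at most 5% mitochondrial unique molecular identifiers (UMIs), and at least 3 of the 8 endothelial genes Flt1, Adgrl4, Cyyr1, Ptprb, Emcn, Egfl7, Pecam1 and Kdr. At most 1 of 6 genes of other cells was allowed, namely Pdgfra, Abca8a, Ptprz1, Ptprc, Prox1 and Kcnj3. The rule took 760 of the 27633 nuclei that passed the gene and mitochondrial limits. There were 289 in the IR+pilocarpine library, 211 in the IR+saline library and 260 in the Non-IR library. Because the members were chosen by detection of these measured genes, the levels of the 8 rule genes are given only as a description.

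The series asked how cell identities and signalling differ between treatments of the submandibular gland, a salivary gland that is damaged by irradiation (IR). All mice were wild type, and each group was 1 library, with the number, sex and age of the mice not given. IR+pilocarpine glands were irradiated and then given the muscarinic acetylcholine receptor agonist pilocarpine from day 30 to day 90 after irradiation. IR+saline glands were irradiated and given saline. Non-IR glands carry the label no treatment, so in the comparison with them irradiation and saline cannot be told apart. The titles place the irradiated glands at day 90 and the nucleus protocol at day 93. Nuclei came from frozen glands, were stained with DAPI and were sorted before droplet capture. With 1 library per group there was no replicate and no test, so every interval below is a 95% interval for counting error only and every difference describes these libraries.

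Blood endothelial cells line arteries, capillaries and veins. They are kept by vascular endothelial growth factor (VEGF) through the receptors encoded by Flt1 and Kdr, and by angiopoietins through Tek. In salivary glands the capillary bed supplies the fluid from which saliva is made, and parasympathetic nerves that drive secretion also raise blood flow. Endothelial cells respond strongly to interferons, and they present antigen on MHC class I molecules.

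The name of the group was checked against endothelial genes that the rule did not use. All 28 of these genes, among them Cdh5, Tie1, Tek, Erg and Sox17, gave at least 10 UMIs in the members, and 26 stood at least 5 times as high in members as in all other nuclei of every library. Levels are given as CPM, the UMIs of a gene scaled to a fixed total of UMIs in the same nuclei. The sum of the 28 genes was 6252 CPM in IR+pilocarpine, 7904 CPM in IR+saline and 5285 CPM in Non-IR members. It was 472 (IR+pilocarpine), 619 (IR+saline) and 396 CPM (Non-IR) in all other nuclei of the same libraries. Cdh5, the adhesion molecule of endothelial junctions, stood at 116 (IR+pilocarpine), 122 (IR+saline) and 75.4 CPM (Non-IR) in members and at 1.23 (IR+pilocarpine), 0.878 (IR+saline) and 0.895 CPM (Non-IR) in other nuclei. The label held, with the exceptions described next.

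Some members stood at the limits of the rule. Exactly 3 rule genes were found in 21 (IR+pilocarpine), 11 (IR+saline) and 23 (Non-IR) members, and all 8 in 52 in IR+pilocarpine, 59 in IR+saline and 25 in Non-IR. Nuclei with 2 rule genes that fell just outside numbered 12 in IR+pilocarpine, 13 in IR+saline and 24 in Non-IR. The rule genes summed to 2047 (IR+pilocarpine), 1281 (IR+saline) and 1209 CPM (Non-IR) in members with exactly 3 of them and to 527 (IR+pilocarpine), 1207 (IR+saline) and 892 CPM (Non-IR) in those just outside. The 1 allowed gene of other cells was found in 42 (IR+pilocarpine), 29 (IR+saline) and 43 (Non-IR) members, and nuclei with more than 1 that fell outside numbered 118 in IR+pilocarpine, 28 in IR+saline and 35 in Non-IR. IR+pilocarpine shared 33 barcode sequences with IR+saline and 28 with Non-IR, IR+saline shared 32 with Non-IR, and 0 of these were members.

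RNA of acinar cells, which secrete saliva, and of duct cells was found in the members. Mucl2, an acinar secreted product, stood at 45386 (IR+pilocarpine), 40504 (IR+saline) and 49760 CPM (Non-IR) in members whereas the other nuclei held 46131 CPM in IR+pilocarpine, 40098 in IR+saline and 40794 CPM in Non-IR. Genes of duct cells, 13 genes such as Egf and Scnn1b that are called duct products here, were summed. They stood at 2870 CPM in IR+pilocarpine, 7941 CPM in IR+saline and 5038 CPM in Non-IR members. Members with many UMIs held low shares of endothelial RNA. The median member had 1319 UMIs in IR+pilocarpine, 1708 in IR+saline and 1489.5 UMIs in Non-IR, the deepest had 42100 in IR+pilocarpine, 49715 in IR+saline and 61108 in Non-IR, and the deepest 10% gave 49.4% (IR+pilocarpine), 48.4% (IR+saline) and 54.8% (Non-IR) of all member UMIs. No doublet caller was run, and whether these nuclei are doublets or carry free RNA was not tested.

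**Figure D1:**
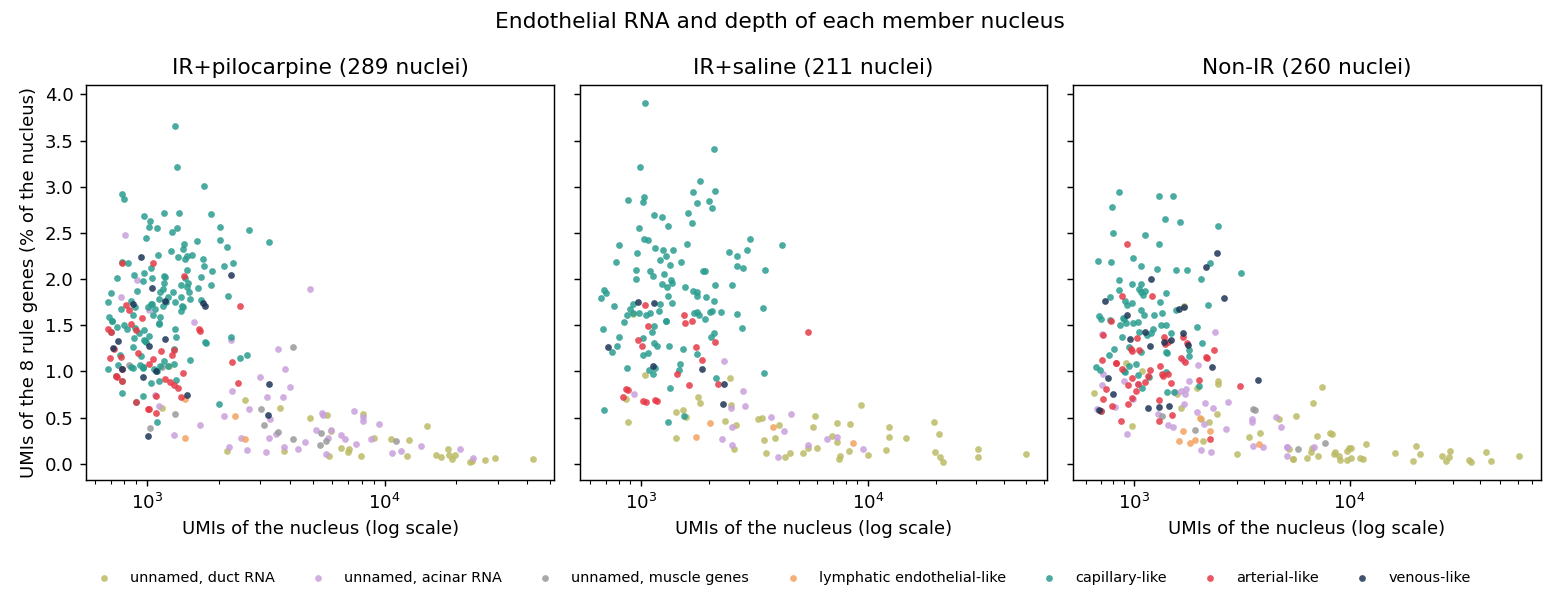
Each point is 1 member nucleus of the IR+pilocarpine, IR+saline or Non-IR library; the horizontal axis is its UMIs on a log scale, the vertical axis the percent of its UMIs from the 8 rule genes, and colours mark the subclusters. The deepest nuclei, up to 61108 UMIs, lie at the bottom of each panel.

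To see how the members vary, they were clustered without the genes of the lists compared below, which gave 7 subclusters. The largest, with 330 nuclei, was capillary-like. Plvap, which forms the diaphragms of capillary pores, stood there at 526 CPM, against 123 CPM in the arterial-like and 240 CPM in the venous-like nuclei. Car4, a carbonic anhydrase of the capillary surface, stood at 168 CPM in the capillary-like nuclei, against 7.25 CPM in the arterial-like nuclei and 0 UMIs in the venous-like nuclei. Not every gene of the capillary list differed in this way. The fatty acid receptor gene Cd36 stood at 177 CPM in the capillary-like and 870 CPM in the arterial-like nuclei, and Sparcl1 at 168 CPM in the capillary-like and 290 CPM in the arterial-like nuclei. Fabp4, a fatty acid carrier, stood at 471 CPM in the capillary-like and 464 CPM in the arterial-like nuclei. The 108 arterial-like nuclei carried the arterial transcription factor gene Sox17 at 471 CPM, the elastic fibre gene Fbln5 at 246 CPM and the gap junction gene Gja4 at 79.7 CPM. In the capillary-like nuclei these genes stood at 49.9, 4.53 and 4.53 CPM. The 48 venous-like nuclei carried Vwf, the clotting factor of endothelial storage granules, at 240 CPM, the leukocyte adhesion receptor gene Selp at 155 CPM and Vcam1 at 98.7 CPM, each at 2.27 CPM in the capillary-like nuclei. A further 15 nuclei were lymphatic endothelial-like, with Reln at 2147 CPM, Mmrn1 at 1841 CPM and Ccl21a at 1278 CPM. The rule allowed 1 gene such as Prox1, so they could pass, and they are members that the name blood endothelial does not describe.

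The other 3 subclusters stayed unnamed. One of 136 nuclei, with a median of 7073.5 UMIs, had the duct product Egf among its leading genes, at 2690 CPM. One of 104 nuclei held the highest level of acinar products, 70854 CPM, with rule genes at 4107 CPM. One of 19 nuclei was led by muscle genes such as Myh11 at 1462 CPM. The capillary-, arterial- and venous-like nuclei together are called vessel nuclei here. They numbered 192 in IR+pilocarpine, 142 in IR+saline and 152 in Non-IR, with 238086 UMIs in IR+pilocarpine, 216848 in IR+saline and 195134 UMIs in Non-IR, which was 25.3% (IR+pilocarpine), 30.2% (IR+saline) and 19.9% (Non-IR) of the member UMIs. Their rule genes summed to 16364 CPM in IR+pilocarpine, 17658 in IR+saline and 14252 CPM in Non-IR, against 2590 (IR+pilocarpine), 2508 (IR+saline) and 1891 CPM (Non-IR) in the other members. Vessel nuclei were separated after seeing the data, and list medians below are given for all members and again for them.

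The capillary-like subcluster held 135 (IR+pilocarpine), 114 (IR+saline) and 81 (Non-IR) nuclei of the 3 libraries, the arterial-like 39 in IR+pilocarpine, 21 in IR+saline and 48 in Non-IR, the venous-like 18 in IR+pilocarpine, 7 in IR+saline and 23 in Non-IR, and the lymphatic endothelial-like 4 in IR+pilocarpine, 4 in IR+saline and 7 in Non-IR. These numbers describe the libraries, and differences between them were not tested. Genes that lead a subcluster, such as Ly6c1, Thsd7a, Nebl and Pcsk5, differed between libraries, so the line between subclusters can move with them. The study's own names for these nuclei may not match, since the subclusters were made anew.

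**Figure D2:**
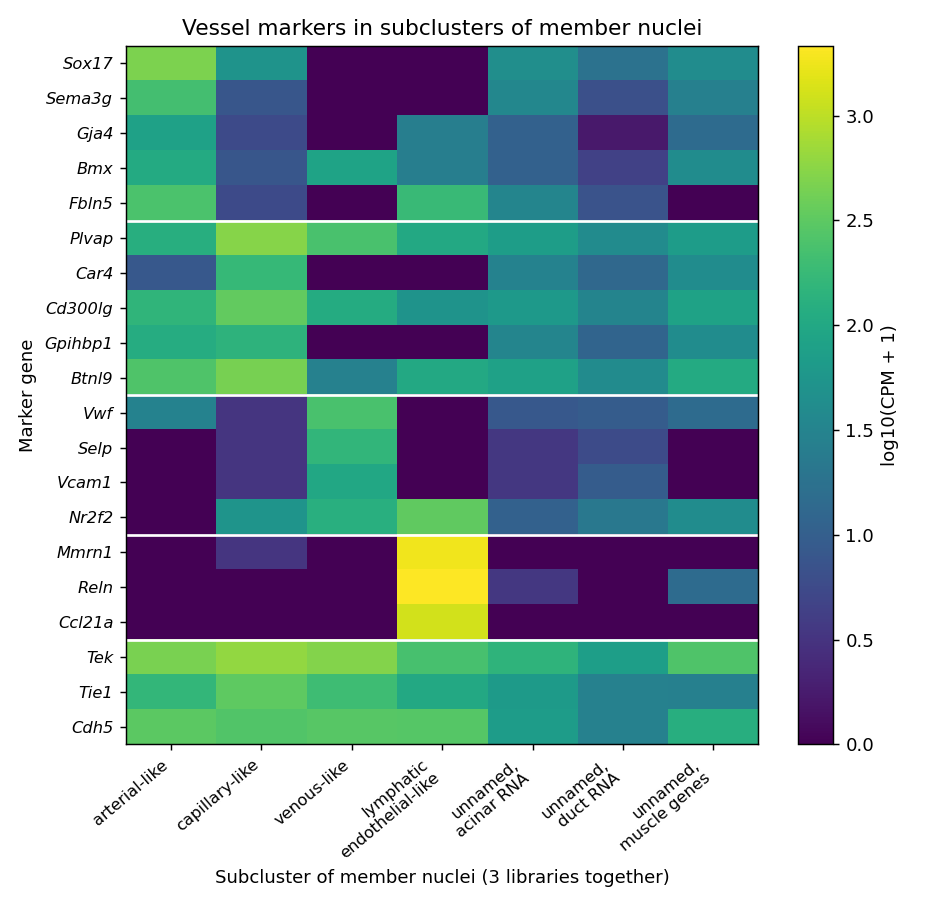
Heat map of 20 marker genes in the 7 subclusters of members, pooled over the 3 libraries; the colour is log10(CPM + 1). Brighter colours are higher levels. Arterial, capillary, venous and lymphatic markers are each brightest in a different subcluster, except that the venous marker Nr2f2 is brightest in the lymphatic endothelial-like one, and the subcluster with Egf among its leading genes holds Plvap at 38.9 CPM, against 526 CPM in the capillary-like nuclei.

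Members made up 3.45% of the IR+pilocarpine nuclei (3.07% to 3.86%, exact Clopper-Pearson), 2.45% of the IR+saline nuclei (2.13% to 2.80%) and 2.44% of the Non-IR nuclei (2.16% to 2.76%). The share in the IR+pilocarpine library was higher than in the IR+saline library by 1.003 points (0.495 to 1.52, Newcombe). It was higher than in the Non-IR library by 1.006 points (0.522 to 1.5025). The IR+saline share differed from the Non-IR share by 0.00247 points (-0.434 to 0.447), which lay within counting error. Vessel nuclei alone made up 2.29% in IR+pilocarpine, 1.65% in IR+saline and 1.43% in Non-IR.

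The higher share in the IR+pilocarpine library was not seen when shallow nuclei were left out. With a minimum of 1000 genes per nucleus, members made up 2.13% of IR+pilocarpine, 2.07% of IR+saline and 2.45% of Non-IR nuclei. The difference was then 0.0618 points (-0.476 to 0.603) between the irradiated libraries and -0.321 points (-0.896 to 0.249) between IR+pilocarpine and Non-IR. With every nucleus thinned to 800 UMIs, the shares were 2.58% in IR+pilocarpine, 1.95% in IR+saline and 1.79% in Non-IR. Without the limit on genes of other cells they were 4.86% in IR+pilocarpine, 2.77% in IR+saline and 2.77% in Non-IR, an alternative chosen after seeing the data. Sorting and nucleus release can also set such shares, and their part was not tested.

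**Figure D3:**
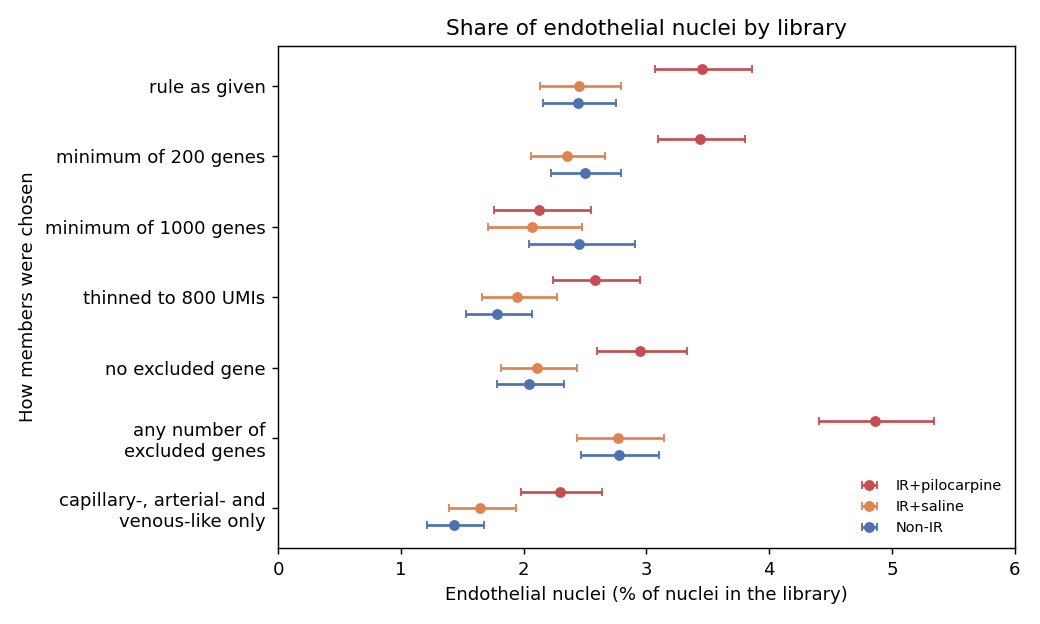
Share of nuclei that are blood endothelial members, in percent of nuclei passing the filter, under 7 ways of choosing members; points are the IR+pilocarpine, IR+saline and Non-IR libraries and bars are exact 95% Clopper-Pearson intervals for counting error. The IR+pilocarpine point lies to the right in every way except the minimum of 1000 genes, where it is 2.13% beside 2.07% and 2.45%.

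The comparison of IR+saline with Non-IR members addresses what differs in vessels months after irradiation. The IR+saline members had higher levels of capillary genes, of the muscarinic receptor gene Chrm2, of the inhibitor-of-differentiation genes Id1 and Id3, of interferon and MHC class I genes, and of immediate early genes. The transcription factor gene Zbtb16 and the stress-hormone target Fkbp5 were also higher. Padi4, Thsd7a and Tll1 were among the genes at lower levels, though the lower level of Tll1 did not hold in vessel nuclei. Ratios in this comparison are of IR+saline over Non-IR. Over 9440 genes with at least 20 UMIs in these 2 libraries, 4.07% were at least 2 times higher and 3.40% at least 2 times lower in IR+saline members. In vessel nuclei these shares were 5.21% and 5.31% of 4031 genes. Of 6438 genes with at least 10 UMIs in vessel nuclei, 51.1% were higher in IR+saline.

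Endothelial genes as a whole took a larger part of the RNA in IR+saline members. For 181 genes that were at least 5 times as high in members as elsewhere in every library and stand in no list, the median log2 ratio of IR+saline over Non-IR was 0.65 in all members, and 164 of the 181 were higher. Over all 11484 genes with at least 10 UMIs the median was 0.01, and 51.1% were higher. In vessel nuclei the median of the endothelial genes was 0.26. RNA of other cells also differed, with acinar products at 48864 CPM in IR+saline and 60135 CPM in Non-IR members and duct products at 7941 and 5038 CPM, and its part in these ratios was not tested. When free RNA, taken from barcodes under 500 genes, was subtracted, the median of the 28 pan-endothelial genes was -0.050, against 0.63 without subtraction. The subtraction, scaled to the acinar products, removed unequal parts of the members' CPM, namely 25.2% in IR+pilocarpine, 43.8% in IR+saline and 66.8% in Non-IR, and this bears on every subtracted median below. Each list median of IR+saline over Non-IR is therefore to be read beside those of the 181 genes. These were 0.65 in all members and 0.26 in vessel nuclei. In the interferon response and immediate early lists, 0 genes were at least 5 times as high in members in every library. How far such lists follow the 181 genes was not tested. Ratios of lists are of CPM + 1 on the log2 scale, which understates differences of low genes.

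Ligands and receptors of the VEGF and angiopoietin pathways had a median log2 ratio of 0.73 in all members, with 11 of 13 measured genes higher, and 0.35 in vessel nuclei, with 7 of 10 higher. Endothelial genes in no list stood at 0.65 and 0.26. The list holds 3 rule genes, Flt1, Kdr and Ptprb, so these values are a description. Without them, an alternative chosen after seeing the data, the median was 0.35 in all members, with 8 of 10 higher, and 0.07 in vessel nuclei, with 4 of 7 higher. Kdr, the main signalling receptor of VEGF, stood at 281 CPM in IR+pilocarpine, 346 CPM in IR+saline and 202 CPM in Non-IR members. The ratio of IR+saline over Non-IR was 1.72 (1.42 to 2.08), and it was 1.59 (1.26 to 2.02) in vessel nuclei. Nrp1, a VEGF co-receptor that the rule did not use, stood at 706 CPM in IR+pilocarpine, 939 in IR+saline and 445 CPM in Non-IR, with a ratio of 2.11 (1.87 to 2.39) in all members and 1.78 (1.53 to 2.07) in vessel nuclei. The angiopoietin receptor gene Tek differed less, at 239 (IR+pilocarpine), 231 (IR+saline) and 182 CPM (Non-IR) and a ratio of 1.27 (1.02 to 1.57), and it was 0.940 (0.719 to 1.23) in vessel nuclei.

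All 9 measured capillary genes were higher in IR+saline than in Non-IR members, with a median of 0.89, and 8 of 9 were higher in vessel nuclei, with a median of 0.73. Beside these stand 0.65 and 0.26 for endothelial genes in no list. Plvap stood at 100 CPM in IR+pilocarpine, 235 in IR+saline and 99.8 CPM in Non-IR, and its IR+saline level was 2.36 times as high as in Non-IR members (1.83 to 3.05). The fatty acid carrier gene Fabp4 stood at 153 CPM in IR+pilocarpine, 245 in IR+saline and 119 CPM in Non-IR, a ratio of 2.05 (1.62 to 2.62). Rgcc, which is abundant in capillary endothelium, stood at 405 CPM in IR+pilocarpine, 306 in IR+saline and 288 CPM in Non-IR, with a ratio of 1.06 (0.886 to 1.27), and it was also found at 342 (IR+pilocarpine), 223 (IR+saline) and 324 CPM (Non-IR) in other nuclei. In vessel nuclei its ratio was 1.80 (1.30 to 2.52). Gpihbp1, the anchor of lipoprotein lipase on capillaries, was chosen after its values were seen. It stood at 49.0 CPM in IR+pilocarpine, 62.6 in IR+saline and 19.3 CPM in Non-IR, with a ratio of 3.24 (1.85 to 5.86). Capillary-like nuclei were 80.3% of the vessel nuclei in IR+saline and 53.3% in Non-IR, and the part of this in the ratios was not tested. Within capillary-like nuclei the capillary list summed to 3483 CPM in IR+saline against 2623 CPM in Non-IR. Plvap had a ratio of 1.69 (1.18 to 2.46) there.

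Arterial genes showed no such difference, with a median of 0.05 and 7 of 13 higher, and of -0.11 with 3 of 10 higher in vessel nuclei. In capillary-like nuclei alone 6 of 6 measured arterial genes were higher, with a median of 0.75. Vegfc, a growth factor of lymphatic vessels, stood at 142 (IR+pilocarpine), 135 (IR+saline) and 186 CPM (Non-IR) in members and at 210 (IR+pilocarpine), 295 (IR+saline) and 692 CPM (Non-IR) in vessel nuclei. Its ratio of IR+saline over Non-IR in vessel nuclei was 0.427 (0.312 to 0.579). Both the arterial-like nuclei, at 928 CPM, and the venous-like nuclei, at 874 CPM, held more of it than the capillary-like nuclei, at 134 CPM, and the Non-IR vessel nuclei held the most arterial- and venous-like ones. The ephrin gene Efnb2 stood at 85.1 CPM in IR+pilocarpine, 131 in IR+saline and 114 CPM in Non-IR, a ratio of 1.15 (0.862 to 1.52). The Notch ligand gene Jag1 stood at 46.8 CPM in IR+pilocarpine, 43.1 in IR+saline and 67.2 CPM in Non-IR, a ratio of 0.642 (0.405 to 0.997). Of 6 measured venous genes 4 were higher, with a median of 0.21. Nrp2, Ephb4 and Nr2f2, the 3 venous genes with the most UMIs, had ratios of 1.13 (0.852 to 1.51), 1.18 (0.836 to 1.67) and 1.46 (0.845 to 2.54). Vwf gave 13 (IR+pilocarpine), 5 (IR+saline) and 20 UMIs (Non-IR) and the nitric oxide synthase gene Nos3 14 UMIs in IR+pilocarpine, 16 in IR+saline and 23 UMIs in Non-IR, too few to rank the libraries.

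Pilocarpine acts on muscarinic receptors, so the receptor genes were followed in the members. Chrm2, on chromosome 6 from 36388084 to 36528414 of GRCm38, gave 72 UMIs in IR+pilocarpine, 90 in IR+saline and 36 UMIs in Non-IR, or 76.6 CPM in IR+pilocarpine, 125 CPM in IR+saline and 36.7 CPM in Non-IR members. In all other nuclei it stood at 1.88 CPM in IR+pilocarpine, 1.48 in IR+saline and 0.895 CPM in Non-IR. Among the subclusters, 118 UMIs lay in the capillary-like nuclei (267 CPM) and 31 in the venous-like nuclei (437 CPM), whereas the arterial-like nuclei gave 0 UMIs. The IR+saline level was 3.41 times that of Non-IR members (2.30 to 5.18) and 2.59 times (1.62 to 4.26) in vessel nuclei.

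Chrm3, the receptor by which acinar cells are made to secrete, stood at 2115 (IR+pilocarpine), 1717 (IR+saline) and 2484 CPM (Non-IR) in members. All other nuclei held 3073 CPM in IR+pilocarpine, 2790 in IR+saline and 3391 CPM in Non-IR, and in vessel nuclei the level was 529 CPM in IR+pilocarpine, 341 in IR+saline and 1363 CPM in Non-IR. The member level was below that of the other nuclei in every library. Among vessel nuclei Chrm3 stood at 1377 CPM in the arterial-like and 515 CPM in the capillary-like nuclei, whereas Mucl2 stood at 51649 CPM in the arterial-like and 49736 CPM in the capillary-like nuclei. The part of free RNA in the Chrm3 level was not tested. Chrm1 gave 9 UMIs in IR+pilocarpine, 5 in IR+saline and 9 UMIs in Non-IR, with 9.58 (IR+pilocarpine), 6.96 (IR+saline) and 9.17 CPM (Non-IR) in members against 13.1 (IR+pilocarpine), 11.9 (IR+saline) and 11.9 CPM (Non-IR) elsewhere. The other 2 muscarinic receptor genes gave 0 UMIs in all members.

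Id1, which encodes an inhibitor of basic helix-loop-helix factors and is a target of bone morphogenetic protein (BMP) signalling, stood at 70.2 CPM in IR+pilocarpine, 128 CPM in IR+saline and 29.5 CPM in Non-IR members. The IR+saline ratio over Non-IR was 4.33 (2.83 to 6.83), and it was 3.88 (2.23 to 7.16) in vessel nuclei. Other nuclei held 3.33 (IR+pilocarpine), 3.83 (IR+saline) and 3.09 CPM (Non-IR) of it. Id3, its relative, was chosen after its values were seen and stood at 75.6 CPM in IR+pilocarpine, 117 in IR+saline and 45.8 CPM in Non-IR, a ratio of 2.55 (1.75 to 3.75). The wider list of transforming growth factor beta and BMP genes had a smaller median of 0.33, with 14 of 20 higher, and 0.22 in vessel nuclei. Its receptor genes Bmpr2 and Eng had ratios of 1.35 (1.16 to 1.56) and 1.99 (1.64 to 2.43).

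Ly6c1, a surface antigen of capillary endothelium and of some leukocytes, stood at 121 CPM in IR+pilocarpine, 185 CPM in IR+saline and 35.6 CPM in Non-IR members. Of the genes named by rule in this comparison it had the interval farthest above 1, with an IR+saline ratio over Non-IR of 5.19 (3.55 to 7.76). Within the capillary-like nuclei, which it helps to define, the UMIs were 71 (IR+pilocarpine), 96 (IR+saline) and 19 (Non-IR) and the ratio was 2.87 (1.74 to 4.97). Zbtb16, a zinc-finger transcription factor, stood at 163 CPM in IR+pilocarpine, 242 in IR+saline and 66.2 CPM in Non-IR, a ratio of 3.66 (2.73 to 4.94), and was also present in fibroblast nuclei at 163 CPM in IR+pilocarpine, 230 in IR+saline and 93.5 CPM in Non-IR. Ephb1, an ephrin receptor, gave 39 UMIs in IR+pilocarpine, 64 in IR+saline and 25 UMIs in Non-IR, a ratio of 3.50 (2.17 to 5.80). AW112010, an RNA induced in inflammation, gave 15 UMIs in IR+pilocarpine, 25 in IR+saline and 6 UMIs in Non-IR, a ratio of 5.69 (2.28 to 17.0).

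**Figure D4:**
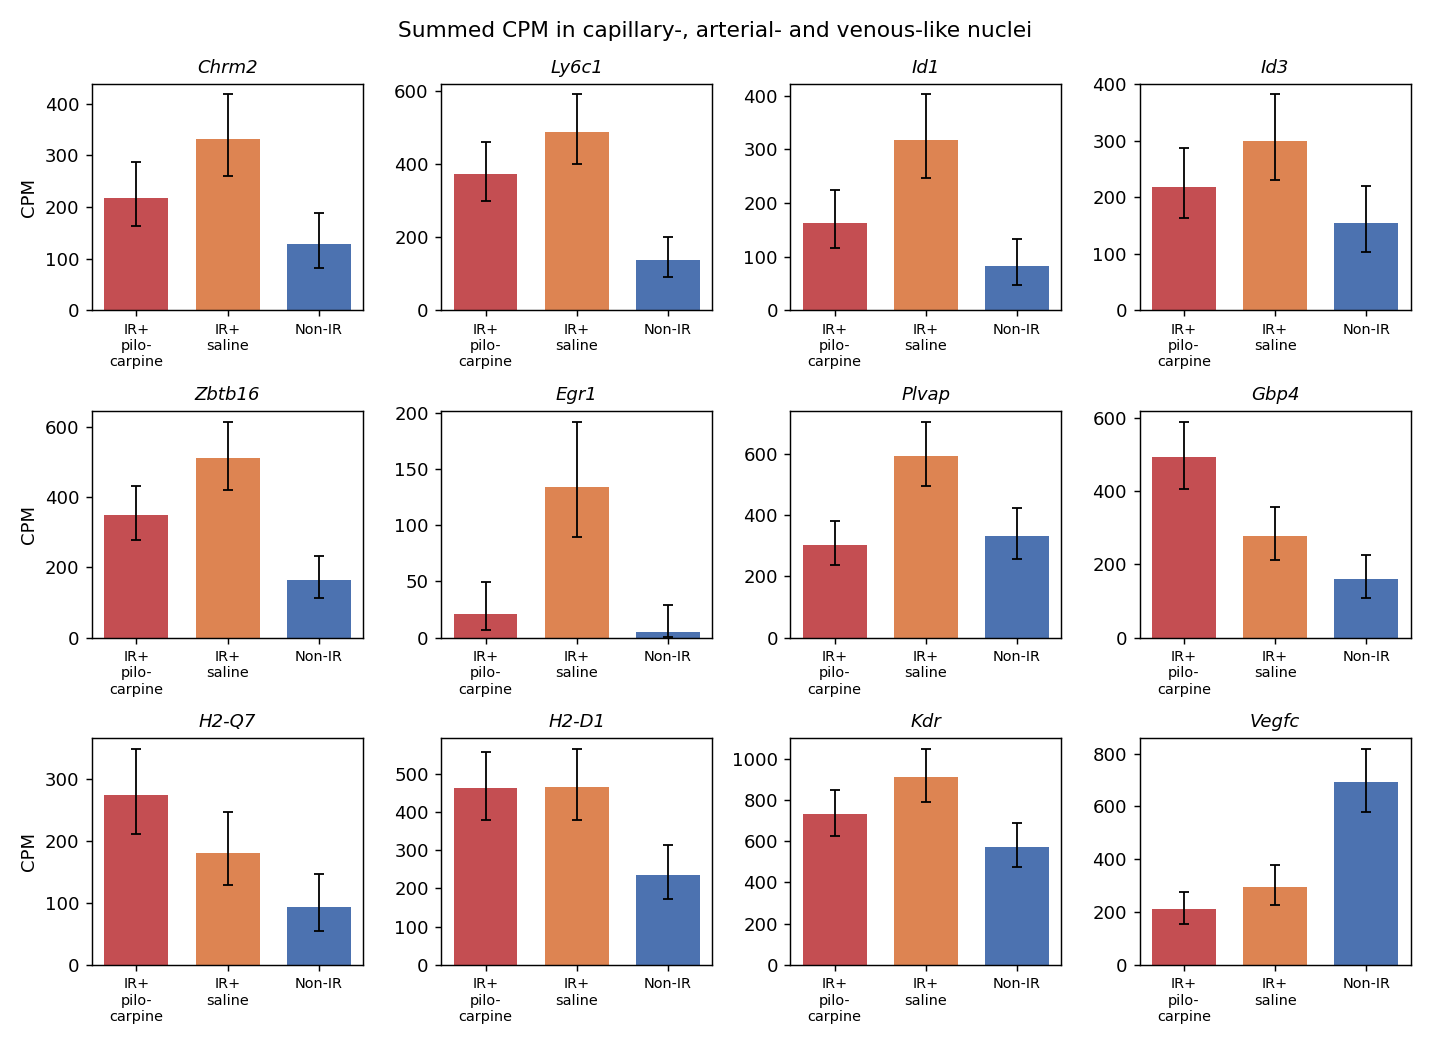
CPM of 12 genes in the capillary-, arterial- and venous-like members together, with exact 95% Poisson intervals for counting error; the bars are the IR+pilocarpine, IR+saline and Non-IR libraries. Chrm2, Ly6c1, Id1, Id3, Zbtb16, Egr1 and Plvap are highest in IR+saline, Gbp4 and H2-Q7 are highest in IR+pilocarpine, and Vegfc is highest in Non-IR at 692 CPM.

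Genes of the interferon response and of antigen presentation were higher in IR+saline than in Non-IR members. Promoters of 4 of them are shown because a motif of interferon-activated factors recurs in these lists. The motif was GAAA, then NN for any pair of bases, then GAAA, the core of the interferon-stimulated response element, searched on both strands in the 300 bases around each gene's start. The sequences are from RefSeq on GRCm38.p6, given 5′ to 3′ on the strand of the gene, with the motif in capitals. In H2-T23 and Gbp3 it lies on the other strand, so its reverse complement is printed.
B2m, chr2:122147437-122147736, plus strand: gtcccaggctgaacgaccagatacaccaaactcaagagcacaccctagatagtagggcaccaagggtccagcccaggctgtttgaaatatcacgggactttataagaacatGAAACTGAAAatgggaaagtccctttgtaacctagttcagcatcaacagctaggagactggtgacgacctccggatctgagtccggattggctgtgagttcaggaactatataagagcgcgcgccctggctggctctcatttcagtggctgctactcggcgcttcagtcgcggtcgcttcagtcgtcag
H2-T23, chr17:36032652-36032951, minus strand: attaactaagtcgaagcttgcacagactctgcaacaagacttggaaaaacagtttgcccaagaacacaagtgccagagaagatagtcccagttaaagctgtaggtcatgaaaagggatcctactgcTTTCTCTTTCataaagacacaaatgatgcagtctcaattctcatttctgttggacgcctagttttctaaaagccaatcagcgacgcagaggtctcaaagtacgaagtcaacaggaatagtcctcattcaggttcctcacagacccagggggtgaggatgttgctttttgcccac
Gbp3, chr3:142559794-142560093, plus strand, with overlapping matches: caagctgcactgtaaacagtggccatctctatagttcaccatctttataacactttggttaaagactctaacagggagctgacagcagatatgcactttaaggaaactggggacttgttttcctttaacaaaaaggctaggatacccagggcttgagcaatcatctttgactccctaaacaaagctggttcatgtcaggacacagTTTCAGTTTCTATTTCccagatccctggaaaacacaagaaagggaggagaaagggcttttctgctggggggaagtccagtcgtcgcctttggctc
Igtp, chr11:58199306-58199605, plus strand: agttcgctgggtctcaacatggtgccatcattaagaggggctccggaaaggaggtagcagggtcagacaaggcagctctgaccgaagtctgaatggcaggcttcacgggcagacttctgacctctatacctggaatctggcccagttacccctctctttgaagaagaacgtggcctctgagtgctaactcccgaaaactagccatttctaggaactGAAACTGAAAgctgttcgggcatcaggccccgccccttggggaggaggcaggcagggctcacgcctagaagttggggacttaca
The motif stood in 53.6% of the 28 interferon response genes with a promoter in the table, in 23.1% of 13 MHC class I genes and in 69.2% of 13 genes induced by interferon gamma. It stood in 3.99% of all 27025 promoters and in 7.69% of 13 pan-endothelial genes. A match describes the letters of the window and is not a measured site.

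Of the 33 interferon response genes measured in both libraries, 32 were higher in IR+saline members, with a median log2 ratio of 0.77, beside 51.1% of all genes. Of the 30 with at least 20 UMIs, 10 were at least 2 times higher, beside 4.07% of all genes with that minimum. In vessel nuclei 24 of 29 were higher, with a median of 0.51, beside 51.1% of all genes there. Relative to the 181 endothelial genes in no list the member median was 0.12, and with free RNA subtracted it was 0.11. The 3 genes with the most UMIs differed little. Sp100 of nuclear bodies, the signal transducer gene Stat2 and Rnf213 had ratios of 1.01 (0.883 to 1.15), 1.22 (0.965 to 1.53) and 1.45 (1.15 to 1.82). A larger difference, chosen after its values were seen, was found for the antiviral gene Oasl2. It stood at 78.8 CPM in IR+pilocarpine, 127 in IR+saline and 40.7 CPM in Non-IR members, with an IR+saline ratio over Non-IR of 3.11 (2.12 to 4.63).

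Every one of the 15 measured MHC class I genes was higher in IR+saline than in Non-IR members, with a median of 0.86, and 13 of 15 were higher in vessel nuclei, with a median of 0.57. For endothelial genes in no list these medians were 0.65 and 0.26. H2-K1, a classical class I heavy chain, stood at 541 CPM in IR+pilocarpine, 399 in IR+saline and 260.7 CPM in Non-IR, with an IR+saline ratio over Non-IR of 1.53 (1.29 to 1.82). H2-D1 stood at 255 CPM in IR+pilocarpine, 257 in IR+saline and 135 CPM in Non-IR, a ratio of 1.90 (1.51 to 2.39). B2m, the light chain they share, stood at 126 CPM in IR+pilocarpine, 203 in IR+saline and 114 CPM in Non-IR, a ratio of 1.78 (1.38 to 2.30). H2-T23, the non-classical class I gene whose promoter is shown above, stood at 46.8 CPM in IR+pilocarpine, 73.7 in IR+saline and 18.3 CPM in Non-IR, a ratio of 4.02 (2.32 to 7.30). Class I genes have near-identical copies, and reads could be split between them in counting, so single members of this family are uncertain.

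Genes induced by interferon gamma had a median of 0.76, with 14 of 18 higher, and of 0.80 with 11 of 13 higher in vessel nuclei. Endothelial genes in no list had 0.65 and 0.26. Iigp1, a GTPase of defence inside cells, stood at 122 CPM in IR+pilocarpine, 150 in IR+saline and 50.9 CPM in Non-IR, a ratio of 2.95 (2.09 to 4.21). Gbp4, a guanylate-binding protein gene, stood at 160 CPM in IR+pilocarpine, 106 in IR+saline and 57.0 CPM in Non-IR, a ratio of 1.85 (1.30 to 2.67). Irf1, the transcription factor that relays interferon gamma, stood at 100.035 CPM in IR+pilocarpine, 87.6 in IR+saline and 64.2 CPM in Non-IR, and its ratio of 1.37 (0.948 to 1.97) included 1.

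These lists were also higher outside the endothelium. In all other nuclei and in fibroblast nuclei, the IR+saline medians over Non-IR were 0.99 and 0.87 for the interferon response, 0.68 and 0.82 for MHC class I genes, and 0.71 and 0.94 for genes induced by interferon gamma. The medians of all members, 0.77, 0.86 and 0.76, were of similar size, whereas those of vessel nuclei were 0.51, 0.57 and 0.80. Vessel nuclei gave 30.2% of the member UMIs in IR+saline and 19.9% in Non-IR. The difference between cell types was not tested. The 11 macrophage markers summed to 111 (IR+pilocarpine), 135 (IR+saline) and 107 CPM (Non-IR) in members and to 134 (IR+pilocarpine), 73.8 (IR+saline) and 15.4 CPM (Non-IR) in vessel nuclei, where Cd74 was the largest part at 84.0 (IR+pilocarpine), 36.9 (IR+saline) and 15.4 CPM (Non-IR) and 5 (IR+pilocarpine), 5 (IR+saline) and 10 (Non-IR) of the markers were at 0. T and NK markers summed to 9.58 (IR+pilocarpine), 13.9 (IR+saline) and 12.2 CPM (Non-IR) in members. Their part in these results was not tested.

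Immediate early genes, which cells switch on within minutes of a stimulus, had a median of 1.05, with 16 of 17 measured genes higher in IR+saline than in Non-IR members. In vessel nuclei 12 of 12 were higher, with a median of 1.15, beside 51.1% of all genes there. Only 3 of these 12 genes reached 20 UMIs in both libraries together. Genes entered on 10 UMIs over both libraries, so a low gene could pass through the library where it was higher. Egr1 gave 10 UMIs in IR+pilocarpine, 39 in IR+saline and 9 UMIs in Non-IR, or 10.6 CPM in IR+pilocarpine, 54.3 in IR+saline and 9.17 CPM in Non-IR, a ratio of 5.92 (2.82 to 13.9). In vessel nuclei it gave 5 UMIs in IR+pilocarpine, 29 in IR+saline and 1 UMI in Non-IR. Ier3, chosen after its values were seen, gave 11 UMIs in IR+pilocarpine, 36 in IR+saline and 11 UMIs in Non-IR, a ratio of 4.47 (2.23 to 9.74). Of the 3 members of the list with the most UMIs, Nr4a1, Nr4a2 and Klf10 had ratios of 1.25 (0.807 to 1.93), 1.62 (1.03 to 2.56) and 1.91 (1.11 to 3.33). The list was also higher in other nuclei, with a median of 0.65, and in fibroblast nuclei, with a median of 0.85. Relative to the endothelial genes in no list the member median was 0.40, and with free RNA subtracted it was 2.94. Such genes can respond to the handling of tissue, which was not tested.

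Glucocorticoid target genes had a median of 0.76, with 12 of 13 higher, and of 1.02 in vessel nuclei. The medians of endothelial genes in no list were 0.65 and 0.26. Fkbp5, a co-chaperone of the glucocorticoid receptor that its ligand induces, stood at 113 CPM in IR+pilocarpine, 338 CPM in IR+saline and 181 CPM in Non-IR members, with an IR+saline ratio over Non-IR of 1.86 (1.53 to 2.28). The receptor gene Nr3c1 stood at 189 CPM in IR+pilocarpine, 259 in IR+saline and 185 CPM in Non-IR, a ratio of 1.40 (1.13 to 1.72), and Klf9 had a ratio of 1.11 (0.859 to 1.43). The list was higher in other nuclei and in fibroblast nuclei too, with medians of 0.83 and 1.25. Clock genes pointed both ways, which a median of 0.42 hides. Per2 gave 87 UMIs in IR+pilocarpine, 70 in IR+saline and 23 UMIs in Non-IR, whereas Arntl gave 16 (IR+pilocarpine), 5 (IR+saline) and 34 (Non-IR) and Npas2 12 in IR+pilocarpine, 2 in IR+saline and 35 in Non-IR. These 3 were chosen after their values were seen, and other nuclei showed the same order of CPM, with Npas2 at 18.0 CPM in IR+pilocarpine, 8.996 in IR+saline and 44.6 CPM in Non-IR. Of the members' UMIs, 39 of 55 for Arntl and 36 of 49 for Npas2 lay in the unnamed subcluster with duct products. The hour at which glands were taken is not given, so it cannot be told apart from the treatment.

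The list of p53 targets and DNA damage genes stood at a median of 0.29 in all members, where 16 of 22 were higher, and at 0.12 in vessel nuclei, with 7 of 13 higher. Both lie below the medians of endothelial genes in no list, 0.65 and 0.26, and the list's median was 0.73 in other nuclei and 0.64 in fibroblast nuclei. Of the list's 26 genes, 3 were at least 5 times as high in members as in other nuclei of every library. All endothelial genes in no list were chosen that way, and how far the p53 list follows them was not tested. Sesn1, Mdm2 and Polk, the 3 with the most UMIs, had ratios of 1.22 (0.938 to 1.59), 1.01 (0.714 to 1.42) and 1.61 (1.13 to 2.31). Cdkn1a, the cell cycle inhibitor that p53 induces, was chosen after its values were seen. It gave 18 UMIs in IR+pilocarpine, 6 in IR+saline and 0 in Non-IR members. With the Non-IR members set to 3 UMIs, the IR+saline level was 2.73-fold higher and the IR+pilocarpine level 6.27-fold higher. These folds take no account of counting error. In other nuclei Cdkn1a stood at 3.33 CPM in IR+pilocarpine, 3.94 in IR+saline and 0.407 CPM in Non-IR.

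The genes at lower levels in IR+saline than in Non-IR members were led by Padi4, an enzyme that converts arginine to citrulline, with 0 UMIs in IR+pilocarpine, 1 in IR+saline and 43 in Non-IR members. Its ratio of IR+saline over Non-IR was 0.0318 (0.000786 to 0.187), and other nuclei held 0.123 CPM in IR+pilocarpine, 0.141 in IR+saline and 10.7 CPM in Non-IR, so it was lower there as well. Thsd7a, a thrombospondin-domain gene that leads the venous-like subcluster, stood at 43.6 CPM in IR+pilocarpine, 47.3 in IR+saline and 105 CPM in Non-IR, a ratio of 0.451 (0.297 to 0.670). Pcsk5, a proprotein convertase, stood at 85.1 CPM in IR+pilocarpine, 38.9 in IR+saline and 83.5 CPM in Non-IR, a ratio of 0.466 (0.292 to 0.724). Nebl, an actin-binding protein gene that leads the arterial-like subcluster with Pcsk5, stood at 136 CPM in IR+pilocarpine, 97.4 in IR+saline and 166 CPM in Non-IR, a ratio of 0.587 (0.437 to 0.781). Venous- and arterial-like nuclei numbered 7 and 21 of the IR+saline members and 23 and 48 of the Non-IR members. Within arterial-like nuclei the IR+saline ratio over Non-IR was 1.06 (0.607 to 1.81) for Pcsk5 and 0.865 (0.604 to 1.22) for Nebl. The lower levels of these genes were thus not clear of counting error there. Within venous-like nuclei Thsd7a had a ratio of 0.487 (0.224 to 0.951), on 10 UMIs in IR+saline and 69 in Non-IR. Each gene leads the subcluster in which it is compared here. The part of the nucleus numbers in the ratios of all members was not tested.

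Tll1, a protease of the BMP1 family, stood at 115 (IR+pilocarpine), 181 (IR+saline) and 312 CPM (Non-IR) in all members, with an IR+saline ratio over Non-IR of 0.580 (0.469 to 0.715), and at 16.7 (IR+pilocarpine), 18.7 (IR+saline) and 109 CPM (Non-IR) in other nuclei. In vessel nuclei it stood at 311 CPM in IR+pilocarpine, 447 in IR+saline and 420 CPM in Non-IR, a ratio of 1.06 (0.785 to 1.45), so the lower level did not hold there. Pir, Sept10 and Stmn2 gave 8, 8 and 6 UMIs in IR+saline against 35, 31 and 25 in Non-IR members, with ratios of 0.312 (0.125 to 0.685), 0.352 (0.140 to 0.784) and 0.328 (0.110 to 0.819).

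**Figure D5:**
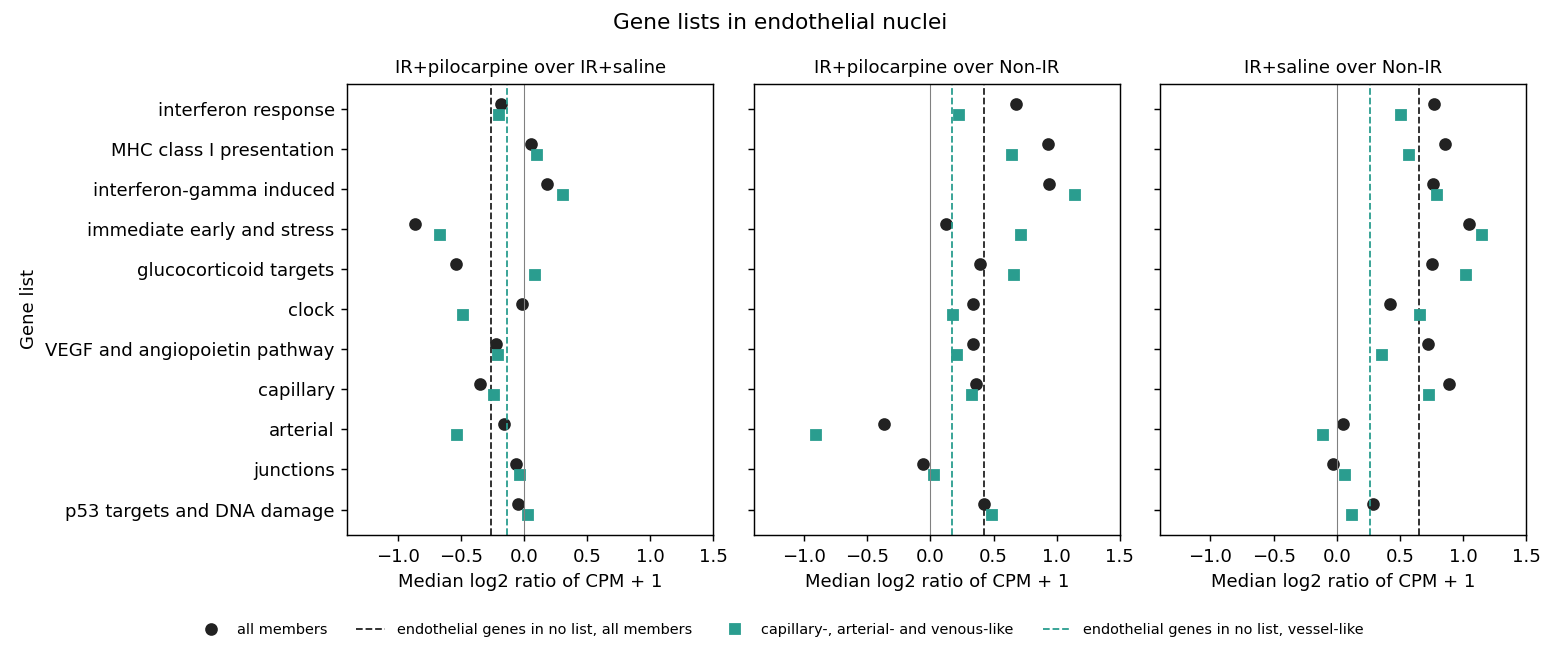
Median log2 ratio of CPM + 1 for 11 gene lists in the 3 comparisons, which share libraries; circles are all members and squares the capillary-, arterial- and venous-like members, and dashed lines are the medians of endothelial genes in no list. The immediate early list lies at 1.05 for IR+saline over Non-IR and at -0.86 for IR+pilocarpine over IR+saline, while the MHC class I list lies at 0.86 and 0.06.

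The comparison of IR+pilocarpine with IR+saline members addresses how vessels of irradiated glands with and without the muscarinic agonist differ. Immediate early genes, Plvap, Chrm2 and Id1 were lower in IR+pilocarpine members. Glucocorticoid targets were lower in all members, but had a median of 0.09 in vessel nuclei. Gbp4 and H2-K1 were higher. The interferon response differed little as a list. This comparison shares the IR+saline library with the one before, so a gene that is high in that library alone appears in both, in opposite directions. Ratios here are of IR+pilocarpine over IR+saline. Over 9413 genes with at least 20 UMIs, 3.43% were at least 2 times higher and 3.68% at least 2 times lower in IR+pilocarpine members. In vessel nuclei they were 3.26% and 3.63% of 4325 genes. Of 6755 genes with at least 10 UMIs in vessel nuclei, 47.9% were higher in IR+pilocarpine. Endothelial genes in no list had a median log2 ratio of -0.26 in all members and of -0.13 in vessel nuclei.

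Of 16 immediate early genes, 1 was higher in IR+pilocarpine than in IR+saline members, whereas 50.7% of all genes were, and the median was -0.86. In vessel nuclei 4 of 12 were higher, with a median of -0.67. Egr1, at 10.6 CPM in IR+pilocarpine and 54.3 CPM in IR+saline members, had a ratio of 0.196 (0.0873 to 0.400). Ier3 had a ratio of 0.234 (0.107 to 0.469), with 11 UMIs in IR+pilocarpine against 36 in IR+saline. Nr4a1, Nr4a2 and Klf10 had ratios of 0.872 (0.567 to 1.34), 0.935 (0.619 to 1.42) and 1.25 (0.804 to 1.96), which all included 1. The list's medians were -0.22 in other nuclei and -0.31 in fibroblast nuclei.

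Glucocorticoid targets had a median of -0.54, with 2 of 14 higher, but of 0.09 in vessel nuclei, with 6 of 11 higher. Fkbp5, at 113 CPM in IR+pilocarpine against 338 in IR+saline, had a ratio of 0.334 (0.263 to 0.421), and in vessel nuclei, at 168 CPM in IR+pilocarpine against 360 in IR+saline, of 0.467 (0.311 to 0.692). Nr3c1 had a ratio of 0.732 (0.593 to 0.904). Klf9, at 206 CPM in IR+pilocarpine against 157 in IR+saline, had a ratio of 1.31 (1.04 to 1.67).

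Capillary genes had a median of -0.35, with 2 of 10 higher, and of -0.24 in vessel nuclei. Capillary-like nuclei were 70.3% of the vessel nuclei in IR+pilocarpine and 80.3% in IR+saline, and the part of this was not tested. Plvap, at 100 CPM in IR+pilocarpine and 235 CPM in IR+saline members, had a ratio of 0.426 (0.327 to 0.551), and in vessel nuclei, at 302 CPM in IR+pilocarpine against 595 in IR+saline, of 0.508 (0.376 to 0.683). Fabp4 had a ratio of 0.626 (0.499 to 0.785). Rgcc, at 405 CPM in IR+pilocarpine against 306 in IR+saline, had a ratio of 1.32 (1.12 to 1.57) in all members and 1.06 (0.821 to 1.38) in vessel nuclei. Aqp1, a water channel of capillary endothelium, gave 11 UMIs in IR+pilocarpine against 33 in IR+saline, a ratio of 0.255 (0.116 to 0.517). The VEGF and angiopoietin list had a median of -0.22, and of -0.19 without its rule genes, and Nrp1 a ratio of 0.751 (0.674 to 0.838). All 12 measured genes of vascular tone were lower in all members, with a median of -0.41, but 8 of 12 were lower in vessel nuclei, with a median of -0.18. Among them, Calcrl, the receptor gene of calcitonin-related peptides, had a ratio of 0.979 (0.821 to 1.17). Cav1, the scaffold of caveolae, had a ratio of 0.706 (0.564 to 0.883), and Ece1, which processes endothelin, one of 0.833 (0.570 to 1.22).

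Chrm2 stood at 76.6 CPM in IR+pilocarpine and 125 CPM in IR+saline members, a ratio of 0.612 (0.443 to 0.844), and in vessel nuclei, at 218 CPM in IR+pilocarpine against 332 in IR+saline, of 0.658 (0.451 to 0.953). Id1 had a ratio of 0.549 (0.394 to 0.761), and of 0.515 (0.338 to 0.773) in vessel nuclei. Zbtb16 had a ratio of 0.673 (0.538 to 0.841) and Ly6c1 one of 0.656 (0.506 to 0.849). For Chrm2, Id1, Zbtb16 and Ly6c1 the IR+pilocarpine level lay between those of the other libraries.

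Interferon response genes stood at a median of -0.18, 11 of 33 being higher, beside -0.26 for endothelial genes in no list. MHC class I genes had a median of 0.06, with 8 of 15 higher, and genes induced by interferon gamma one of 0.18, with 13 of 18 higher. H2-K1 had a ratio of 1.35 (1.17 to 1.57) and Gbp4 one of 1.51 (1.14 to 2.02). In vessel nuclei these ratios were 1.33 (1.06 to 1.67) and 1.78 (1.29 to 2.47). B2m was lower in IR+pilocarpine than in IR+saline members, a ratio of 0.618 (0.481 to 0.794), so the light chain gene and H2-K1 differed in opposite directions. H2-D1 had a ratio of 0.992 (0.816 to 1.21). In other nuclei all 15 class I genes were higher in the IR+pilocarpine library, with a median of 0.74, and in fibroblast nuclei the median was 0.65. The difference between these and the member median of 0.06 was not tested, and the median of endothelial genes in no list, -0.26, stands beside it.

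Of the remaining genes above in IR+pilocarpine over IR+saline members, Foxd2os, Sema3g, Mamld1 and Zyx rested on few UMIs. Foxd2os, a non-coding RNA named for its place opposite the gene Foxd2, gave 25 UMIs in IR+pilocarpine against 5 in IR+saline, a ratio of 3.83 (1.44 to 12.8), and Sema3g, an arterial semaphorin gene, 27 in IR+pilocarpine against 6 in IR+saline, a ratio of 3.44 (1.39 to 10.2). Mamld1 gave 24 UMIs in IR+pilocarpine against 5 in IR+saline and Zyx, a focal adhesion protein gene, 21 in IR+pilocarpine against 5 in IR+saline, with ratios of 3.67 (1.37 to 12.3) and 3.21 (1.18 to 10.9). Pkn3, a kinase gene of endothelial cells, gave 62 in IR+pilocarpine against 25 in IR+saline, a ratio of 1.90 (1.18 to 3.15). Schip1 gave 126 in IR+pilocarpine against 64 in IR+saline, a ratio of 1.51 (1.11 to 2.07). Pcsk5 had a ratio of 2.19 (1.41 to 3.49) in all members but 0.949 (0.520 to 1.73) in vessel nuclei.

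Among genes below, Hikeshi, which imports heat shock proteins into the nucleus, gave 3 UMIs in IR+pilocarpine against 19 in IR+saline members, a ratio of 0.121 (0.0229 to 0.410). Sri, a calcium-binding protein gene, gave 5 in IR+pilocarpine against 22 in IR+saline, a ratio of 0.174 (0.0514 to 0.471). Pon1 gave 4 UMIs in IR+pilocarpine against 20 in IR+saline and the protein kinase C gene Prkcq 5 in IR+pilocarpine against 21 in IR+saline, with ratios of 0.153 (0.0380 to 0.457) and 0.182 (0.0537 to 0.496). Over the 3 libraries, 28 of the 31 Pon1 UMIs lay in the unnamed subcluster with duct products, which held 31 IR+pilocarpine and 49 IR+saline nuclei, and 21 of the 41 Prkcq UMIs lay in the 15 lymphatic endothelial-like nuclei. Vessel nuclei held 3 Pon1 and 6 Prkcq UMIs, too few for a ratio there. Slc28a2, a nucleoside transporter gene, gave 11 in IR+pilocarpine against 31 in IR+saline, a ratio of 0.271 (0.123 to 0.555).

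The comparison of IR+pilocarpine with Non-IR members shares a library with each of the others. Interferon-induced genes, MHC class I genes and Ly6c1 were higher in IR+pilocarpine members. Immediate early genes as a list had a median of 0.12 in all members, and of 0.71 in vessel nuclei on genes with few UMIs. Padi4, Tspan8 and Tll1 were lower, though for Tll1 the difference in vessel nuclei was not clear of counting error. Ratios here are of IR+pilocarpine over Non-IR. Over 9797 genes with at least 20 UMIs, 3.01% were at least 2 times higher and 2.53% at least 2 times lower. In vessel nuclei they were 4.12% and 4.59% of 4225 genes. Of 6665 genes with at least 10 UMIs in vessel nuclei, 48.5% were higher in IR+pilocarpine. Endothelial genes in no list had a median log2 ratio of 0.42 in all members and of 0.17 in vessel nuclei.

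Interferon response genes stood at a median of 0.68, 30 of 33 being higher, beside 51.8% of all genes, and of 0.22 in vessel nuclei, with 19 of 28 higher. With free RNA subtracted the median was -0.074, and that of genes induced by interferon gamma was -0.036. All 15 MHC class I genes were higher, with a median of 0.93, and 13 of 14 in vessel nuclei, with a median of 0.65. H2-K1 had a ratio of 2.07 (1.78 to 2.42) and H2-D1 one of 1.89 (1.52 to 2.35), whereas B2m had one of 1.10 (0.843 to 1.44). Genes induced by interferon gamma had a median of 0.94, with 15 of 18 higher, and of 1.14 in vessel nuclei, with 13 of 13 higher. Gbp4 had a ratio of 2.80 (2.05 to 3.88) and Iigp1 one of 2.40 (1.71 to 3.42). Gbp3 gave 52 UMIs in IR+pilocarpine against 13 in Non-IR members, a ratio of 4.18 (2.24 to 8.37), and Igtp gave 21 in IR+pilocarpine against 2 in Non-IR, a ratio of 10.97 (2.68 to 96.5). Promoters of both are among those shown above. In other nuclei the medians of the class I and interferon-gamma lists were 1.43 and 1.41, and in fibroblast nuclei 1.42 and 1.43.

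Ly6c1 had a ratio of 3.40 (2.31 to 5.12), and Clec9a, a receptor best known from dendritic cells, gave 37 UMIs in IR+pilocarpine against 7 in Non-IR, a ratio of 5.52 (2.43 to 14.7). In vessel nuclei Clec9a gave 25 UMIs in IR+pilocarpine against 5 in Non-IR. Chrm2 had a ratio of 2.09 (1.38 to 3.21) and Id1 one of 2.38 (1.52 to 3.82), while Plvap had one of 1.00 (0.747 to 1.34). The immediate early median was 0.12, with 10 of 15 higher, and 0.71 in vessel nuclei, with 8 of 8 higher. Of these 8 genes, 0 reached 20 UMIs in the vessel nuclei of both libraries together. Genes entered on 10 UMIs over both libraries, so a low gene could pass through the library where it was higher. The 8 of 8 is therefore only a description. Summed, the list stood at 457 CPM in IR+pilocarpine against 294 in Non-IR capillary-like nuclei, at 518 CPM in IR+pilocarpine against 311 in Non-IR arterial-like nuclei and at 713 CPM in IR+pilocarpine against 227 in Non-IR venous-like nuclei. Arterial genes had a median of -0.37, with 2 of 12 higher, and of -0.91 with 0 of 10 higher in vessel nuclei. In capillary-like nuclei alone the direction turned, with a median of 0.08 and 3 of 4 higher, and a sum of 540 CPM in IR+pilocarpine against 466 CPM in Non-IR. In arterial-like nuclei the list summed to 2231 CPM in IR+pilocarpine against 3874 CPM in Non-IR, and in venous-like nuclei to 634 CPM in IR+pilocarpine against 1506 CPM in Non-IR. Vegfc in vessel nuclei, at 210 CPM in IR+pilocarpine against 692 in Non-IR, had a ratio of 0.304 (0.215 to 0.423). This stood beside 39 arterial-like nuclei in the IR+pilocarpine and 48 in the Non-IR library.

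Padi4 had 0 UMIs in IR+pilocarpine members. With these members set to 3 UMIs, it was 13.7-fold lower than in Non-IR members. The bound of its interval nearest to 1 was 10.7-fold lower. Tspan8, a tetraspanin gene, gave 14 UMIs in IR+pilocarpine against 59 in Non-IR, a ratio of 0.248 (0.128 to 0.450), and stood at 23.2 and 29.9 CPM in other nuclei of the IR+pilocarpine and Non-IR libraries. Of its 101 member UMIs over the 3 libraries, 92 lay in the unnamed subcluster with duct products. Sri had a ratio of 0.174 (0.0528 to 0.453) and Tll1 one of 0.369 (0.293 to 0.461), which was 0.740 (0.533 to 1.03) in vessel nuclei.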

How the data were processed

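Single-nucleus libraries (10x 3' v3.1 chemistry, per the labels' protocols) were deposited by the authors as UMI counts per gene and barcode, raw and not normalized. The submitters' processing notes name Cell Ranger 7.0.1 and GRCm38; the gene annotation and the treatment of intronic reads are not given in the sources used here. The 3 tables hold 32285 genes and 10288, 10161 and 12062 barcodes with 34322111, 29946943 and 26417958 UMIs (IR+pilocarpine, IR+saline, Non-IR). Nuclei passing the filter had medians of 2048, 2113 and 1536 UMIs.

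Member counts were summed per library and scaled to CPM. Intervals were exact: conditional binomial for ratios of CPM, Poisson for levels and Clopper-Pearson for shares, all at 95% and for counting error only. UMIs were not tested between groups, since each group is 1 library. Lists were described by the median log2 ratio of CPM + 1 over genes with at least 10 UMIs in the libraries compared, and 2-fold counts used genes with at least 20 UMIs. The scripts were tested on simulated data. Fibroblast nuclei carried at least 3 of 9 fibroblast genes.

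Subclusters came from 1500 variable genes outside the lists, 15 components, 15 neighbours and Leiden at resolution 0.6. No doublet caller was run.

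Genes were named by the bound of the interval nearest to 1: 8 above and 8 below for IR+saline over Non-IR and for IR+pilocarpine over IR+saline, and 4 and 4 for IR+pilocarpine over Non-IR. They needed 20 UMIs, 8 member nuclei in the higher library, no nucleus over 25% of the UMIs, and a level at least 2 times that of other nuclei. Rule genes and mitochondrial, ribosomal, immunoglobulin, sex-linked and predicted genes were left out. Added were the 3 members of each described list with the most UMIs, and Cdh5, Tek, Tie1, Vwf, Plvap, Nos3, Nr2f2, Efnb2 and Chrm3. The members and lists were chosen with earlier results of these data known.

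Python 3.11.15, numpy 2.4.6, scipy 1.17.1, pandas 2.3.3, scanpy 1.11.5, leidenalg 0.10.2 and matplotlib 3.10.9 were used.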

Additional observations from a re-analysis of the deposited data

Results flagged for a closer look

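Barcodes with at least 3 rule genes but more than 1 of the 6 genes of other cells were left out of the members. They made up 1.41% of the IR+pilocarpine nuclei (1.17% to 1.68%), 0.325% of the IR+saline nuclei (0.216% to 0.469%) and 0.329% of the Non-IR nuclei (0.229% to 0.457%, exact Clopper-Pearson, counting error only), or 118, 28 and 35 barcodes. They stand out because they carry the endothelial genes outside the nuclei compared, and more often in the IR+pilocarpine library. Their median UMIs were 42700.5, 32673 and 22107, and their rule genes summed to 369, 685 and 554 CPM. Of the 118 in the IR+pilocarpine library, 86 carried Pdgfra, 106 Abca8a, 73 Ptprz1, 87 Ptprc, 76 Kcnj3 and 4 Prox1. Whether they hold RNA of several nuclei was not tested.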

How the results depend on the processing

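No paired analysis was possible because there is 1 library per group. Differences in the share of members had the main sign in 19 of the 24 alternatives' values. The other 5 were that of IR+pilocarpine minus Non-IR given below and 4 of IR+saline minus Non-IR, which was 0.00247 points in the main analysis and -0.145 with a minimum of 200 genes, -0.383 with 1000 genes, -0.0724 with 2 rule genes and -0.0019 with any number of excluded genes. Medians of gene lists had the other sign in 271 of 1532 values, and in 20 of these the spread of the list's genes about the main median did not span 0. The cause of the changes below was not tested.

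With a minimum of 1000 genes the share differed by 0.0618 points between IR+pilocarpine and IR+saline and by -0.321 points between IR+pilocarpine and Non-IR, and with any number of excluded genes by 2.09 and 2.09 points. With free RNA subtracted, medians of IR+saline over Non-IR were -0.0097 for rule markers, -0.050 for pan-endothelial genes, 0.11 for the interferon response, 2.94 for immediate early genes and -0.058 for duct products. Those of IR+pilocarpine over Non-IR were -0.62 for rule markers, -0.74 for pan-endothelial genes, -0.75 for capillary genes, -0.074 for the interferon response, -0.036 for interferon-gamma induced genes and 1.27 for immediate early genes.

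The alternatives in this paragraph were chosen after seeing the data. Centred on endothelial genes, pan-endothelial medians were -0.019 (IR+saline over Non-IR), 0.10 (IR+pilocarpine over IR+saline) and -0.043 (IR+pilocarpine over Non-IR), and interferon response medians 0.12, 0.080 and 0.26. Immediate early medians were 0.40 and -0.30 over Non-IR for IR+saline and IR+pilocarpine, and for IR+pilocarpine over Non-IR the capillary median was -0.059 and the clock median -0.088. In vessel nuclei the interferon response medians over Non-IR were 0.51 for IR+saline and 0.22 for IR+pilocarpine, and the immediate early median of IR+pilocarpine was 0.71. For IR+pilocarpine over IR+saline there, glucocorticoid targets were at 0.087, fibroblast markers at -1.85, lymphatic endothelial markers at 0.0027 and Pcsk5 at -0.075, and Tll1 of IR+saline over Non-IR was at 0.090. The fibroblast and lymphatic endothelial values each rested on 1 measured gene. In capillary-like nuclei, IR+pilocarpine over Non-IR gave 0.084 for arterial genes, 0.36 for the interferon response, 1.36 for immediate early genes and 0.13 for Tll1. IR+saline over Non-IR gave 0.75 for immediate early genes and 0.93 for Tll1, and IR+pilocarpine over IR+saline -1.60 for fibroblast and 0.12 for lymphatic endothelial markers. These fibroblast and lymphatic endothelial values rested on no more genes than in vessel nuclei.

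The interferon response median of IR+saline over Non-IR was 0.50 as a mean over nuclei, and that of IR+pilocarpine over Non-IR 0.37 with 4 rule genes and no excluded gene. The immediate early median of IR+saline over Non-IR was 0.82 with a pseudocount of 10 CPM. Tll1 of IR+saline over Non-IR, -0.78 in all members, was 0.21 with 4 rule genes and no excluded gene, 0.25 thinned to 800 UMIs and 0.17 without the top 10% of UMIs. Thinned likewise, IR+pilocarpine over IR+saline gave -0.52 for Pcsk5 and 0.059 for lymphatic endothelial markers.

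Genes at least 2 times higher and lower numbered 384 and 321 for IR+saline over Non-IR, 323 and 346 for IR+pilocarpine over IR+saline, and 295 and 248 for IR+pilocarpine over Non-IR. In that order they numbered 653, 574, 576, 625, 549 and 444 with a minimum of 10 UMIs, 134, 110, 90, 123, 98 and 72 with 50 UMIs, and 143, 114, 102, 142, 84 and 64 with a pseudocount of 10 CPM. In capillary-like nuclei they numbered 208, 146, 122, 138, 134 and 122. In vessel nuclei 210 were higher for IR+saline over Non-IR, 141 higher and 157 lower for IR+pilocarpine over IR+saline, and 174 higher for IR+pilocarpine over Non-IR. Vessel nuclei tested 4031 to 4325 genes, since few UMIs remained.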
